A study of Mus musculus with 16 samples.

Results

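The subject is the dependence of the liver's response to perfluorooctanoate (PFOA) on diet. PFOA is a long-lived perfluorinated fatty acid, and the response was measured as gene expression in mouse liver. The members are all 16 libraries of the gene count table, in 4 groups of 4 mice, which is the whole series. All were C57BL/6 mice aged 29 to 30 weeks, and each library came from the frozen liver of 1 mouse. One group received control diet (CD) with vehicle, the second CD with PFOA, the third high-fat diet (HFD) with vehicle and the last HFD with PFOA. Each diet was fed for 16 weeks, and PFOA or vehicle then followed for 8 weeks. The labels state neither the dose and route of PFOA nor the sex of the mice and the composition of the diets. The measure was the interaction: the log2 PFOA response on HFD minus the log2 PFOA response on CD. A value below 0 means that PFOA raised a gene less, or lowered it more, on HFD than on CD. The test covered 14998 genes that passed a filter on low counts, of 53465 listed.

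PFOA binds the nuclear receptor PPARA, which in hepatocytes switches on fatty acid uptake, peroxisomal and mitochondrial oxidation and ketone production. PFOA is also known to engage CAR and PXR, the receptors that control drug-metabolising P450 enzymes and transporters. A high-fat diet fills hepatocytes with triglyceride and by itself changes genes of lipid storage, sterol synthesis and inflammation. When both exposures act on one gene, the second can add to the first, find the gene already moved, or undo the first change.

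Library totals ranged from 14456524 to 25778125 counts, with the lowest in HFD vehicle 3 and HFD vehicle 2 (17890548). The 10 hepatocyte markers were present in every library, with albumin (Alb) between 37030 and 105000 counts per 1000000 counts of the scaled library (CPM). Within a group, the median distance of a gene from the mean of the other 3 libraries was 0.23 to 0.305 on the log2 scale among CD vehicle mice. It was 0.165 to 0.206 among HFD vehicle mice. CD vehicle 4 stood apart in markers of B and plasma cells, whose summed level was 661 CPM there and 20.3 to 71.9 CPM in the other 15 libraries. CD vehicle 1 stood apart in acute phase proteins, with a geometric mean of 932 CPM over 25 genes against 203 to 240 CPM in the other CD vehicle mice. HFD PFOA 1 stood apart in male-biased liver genes, at a geometric mean of 20.5 CPM over 20 genes. The other HFD PFOA mice had 6.35 to 7.99 CPM. Summed neutrophil markers were 28.8 CPM in HFD PFOA 1 and 7.49 to 9.69 CPM in the other HFD PFOA mice. Fits that left out CD vehicle 1, CD vehicle 4 or HFD PFOA 1 are among those below. Why these mice stood apart was not tested. In bulk liver, fewer cells of a type and less RNA per cell cannot be told apart.

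The interaction was called for 31 genes, 0.207% of those tested, by edgeR's quasi-likelihood test at a Benjamini-Hochberg adjusted p under 0.05. It was above 0 in 10 of them (0.0667% of genes tested) and below 0 in 21 (0.14%), and 23 (0.153%) had a size of at least 1 on the log2 scale. Scaled by library totals instead of TMM, 0.04% of genes tested were called above 0 and 0.253% below. At an unadjusted p under 0.05 the count was 1638 genes, 10.9% of those tested. The count depended on the CD vehicle mice. It was 106 without CD vehicle 1, 352 without CD vehicle 4 and 652 without both, and all 31 genes were called each time. Leaving out any 1 of the other 14 libraries gave 13 to 29 genes, the fewest without HFD vehicle 4 or HFD PFOA 4. None of the 31 changed sign in any fit, which their choice from the same libraries made likely in advance. Of the 31, 11 were called in each of the 16 fits with 1 library left out. These 11 were Cyp3a11, Limch1, Lpl, Fabp5, Elovl2, Ephx1, Cidec, Ivns1abp, Il1rn, Nudt7 and Usp2. The standard error of the interaction had a median of 0.286 on the log2 scale over all genes tested.

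The 31 genes were sorted by which single exposures were called beside the interaction. In 17 ceiling genes, PFOA on CD and HFD under vehicle each moved the gene the same way. Both together gave less than their sum on the log2 scale. The name marks this rule and not a shared limit. For Usp2, for example, HFD PFOA mice averaged 10.9 CPM, below every CD PFOA mouse (mean 19.6 CPM). In 8 reset genes, HFD moved the gene and PFOA on HFD moved it back. In 5 reversal genes, PFOA moved the gene in opposite directions on the 2 diets, and 1 synergy gene responded to PFOA on HFD with no called diet change before it. The classes use the same libraries as the interaction, so they describe the 31 genes and are no further test. Ceiling was the largest class here and in all 23 alternative fits. Those fits reuse the same libraries. PFOA on CD, HFD under vehicle and the interaction also all contain the CD vehicle mean, so the recurrence is no independent support.

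**Figure D1:**
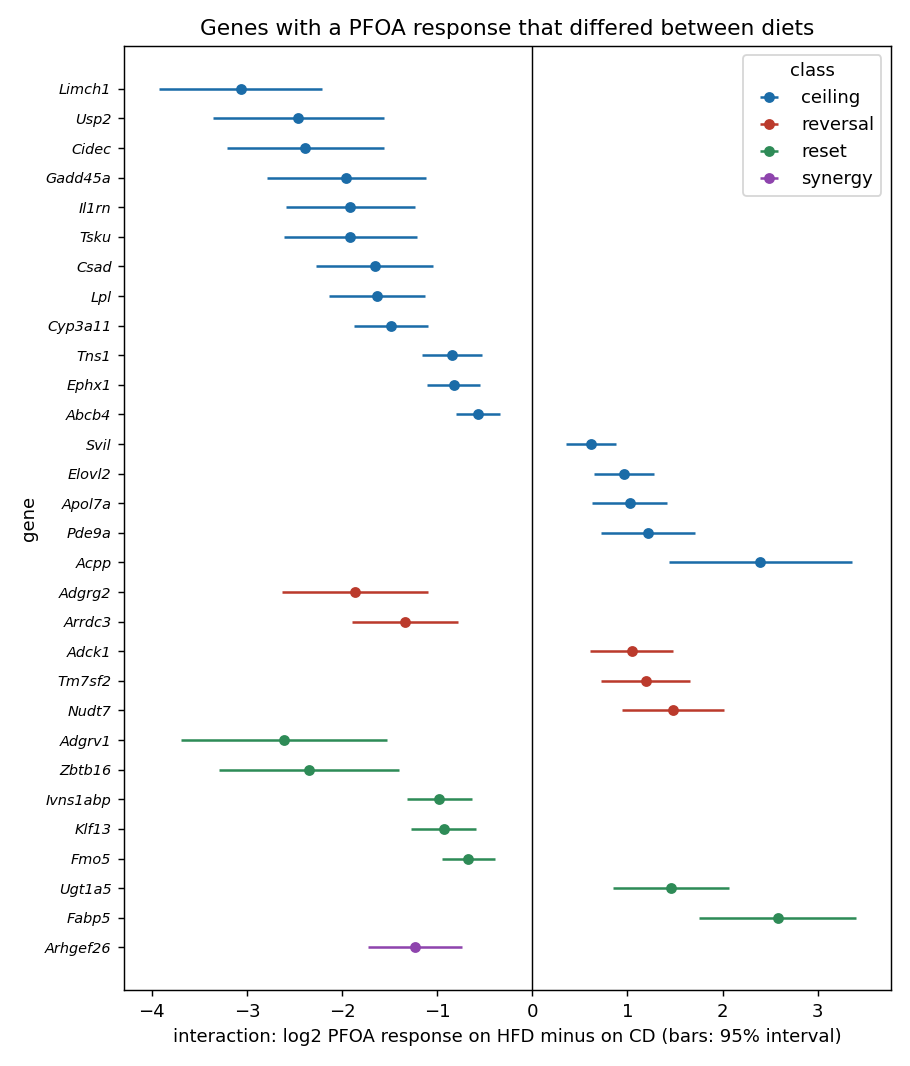
Interaction of 30 of the 31 called genes (x axis: log2 PFOA response on HFD minus log2 PFOA response on CD; points: estimates; bars: 95% intervals; colours: class). Of the 30 drawn, 20 lie below 0, with Limch1 lowest at -3.07, and 10 lie above 0, with Fabp5 highest at 2.58.

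The first group of ceiling genes serves xenobiotic metabolism and bile. Cyp3a11, the main PXR-controlled P450 of mouse liver, stood at 951, 1161, 1041 and 1267 CPM in the CD vehicle mice. PFOA on CD gave 4775, 4523, 4284 and 4879 CPM. HFD vehicle mice had 2679, 3454, 4687 and 3966 CPM, and HFD PFOA mice 5942, 5384, 5370 and 5300 CPM. HFD alone and PFOA alone thus reached overlapping levels, and the combination lay above both. PFOA raised Cyp3a11 by 2.06 ± 0.14 (SE) on the log2 scale on CD and by 0.57 ± 0.13 on HFD, an interaction of -1.49 ± 0.19 (edgeR adjusted p = 0.00244). Ephx1, microsomal epoxide hydrolase, had 315, 336.5, 391.7 and 411 CPM in CD vehicle and 1027, 942, 1012 and 1019 CPM in CD PFOA mice. HFD vehicle mice were intermediate at 618, 590, 682 and 584 CPM, while HFD PFOA mice, at 987, 1039, 897 and 917 CPM, overlapped the CD PFOA mice. Its interaction was -0.83 ± 0.13 (edgeR adjusted p = 0.0132). Abcb4, which moves phosphatidylcholine into bile, averaged 211 ± 10.8 CPM (SD, n = 4) in CD vehicle mice. It averaged 340 ± 16.8 CPM in CD PFOA, 353 ± 19.9 CPM in HFD vehicle and 384 ± 22.5 CPM in HFD PFOA mice. Its interaction of -0.57 ± 0.11 was the smallest in size among the 31 (edgeR adjusted p = 0.0392), and it was called in 4 of the 16 fits that left out 1 library.

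The next ceiling genes act on stored and circulating fat. Cidec, which fuses lipid droplets into larger ones, was at 23.4, 5.22, 15.1 and 28.6 CPM in CD vehicle mice. It was at 107, 106, 103 and 111 CPM in CD PFOA, 125, 132, 96.7 and 126 CPM in HFD vehicle, and 129, 143, 134 and 137 CPM in HFD PFOA mice. Every exposed mouse, by diet or by PFOA, was above every CD vehicle mouse. PFOA raised Cidec 5.9-fold on CD (log2 2.56 ± 0.29), whereas on HFD the difference was 0.18 ± 0.27 and was not called, and the interaction was -2.38 ± 0.39 (edgeR adjusted p = 0.016). Lpl, the lipase that clears triglyceride from lipoproteins, had 29.1, 28.4, 30.1 and 54.3 CPM in CD vehicle mice. PFOA on CD brought it to 518, 487, 490 and 460 CPM. The HFD vehicle values were 115, 122, 112 and 176 CPM, and the HFD PFOA values 576, 604, 571 and 580 CPM. The interaction of Lpl was -1.63 ± 0.24 on the log2 scale (edgeR adjusted p = 0.00971), although PFOA added 453 CPM on CD and 452 CPM on HFD, a difference of -1.78 ± 21.5 CPM (SE). For Lpl the dependence on diet therefore holds for the ratio and not for the added level. The sign was the same on both scales for all 31 genes, but this counts Lpl, whose CPM difference was smaller than its SE. Lpl was not the only gene with a weak difference in CPM, as Il1rn had -6.16 ± 3.25 CPM (SE). Tsku, a secreted leucine-rich protein made by hepatocytes, averaged 56.3 ± 19.3, 155 ± 42.7, 153 ± 32.4 and 112 ± 27.5 CPM (SD, n = 4 each) in CD vehicle, CD PFOA, HFD vehicle and HFD PFOA mice. Its interaction was -1.91 ± 0.33 (edgeR adjusted p = 0.0192).

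Il1rn encodes the secreted antagonist of the interleukin-1 receptor. Its levels were 3.002, 1.92, 2.06 and 5.25 CPM in CD vehicle mice and 29.1, 22.0, 15.9 and 21.2 CPM with PFOA on CD. HFD vehicle mice had 13.8, 12.6, 13.5 and 16.9 CPM and HFD PFOA mice 23.3, 29.0, 27.5 and 28.3 CPM. PFOA raised Il1rn on both diets, by 2.84 ± 0.25 on CD and by 0.93 ± 0.22 on HFD, and its interaction was -1.91 ± 0.33 (edgeR adjusted p = 0.019).

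Promoter sequences of a few ceiling genes are shown because PPARA, CAR and PXR bind with RXR to repeats of the half-site AGGTCA. Each runs from 250 bases before the outermost RefSeq start (build GRCm38.p6) to the last base ahead of the first exon that GENCODE annotates, which can lie before the RefSeq start. The letters are from RefSeq, written 5′ to 3′ on the gene's strand, with half-sites in capitals (AGGTCA or its complement TGACCT). The Cyp3a11 window is chr5:145879965-145880104, minus strand, the Il1rn window chr2:24336610-24336852, plus strand, and the Cidec window chr6:113435761-113436010, minus strand.
Cyp3a11: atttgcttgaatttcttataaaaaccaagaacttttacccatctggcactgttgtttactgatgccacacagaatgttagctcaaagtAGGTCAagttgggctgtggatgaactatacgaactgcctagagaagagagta
Il1rn: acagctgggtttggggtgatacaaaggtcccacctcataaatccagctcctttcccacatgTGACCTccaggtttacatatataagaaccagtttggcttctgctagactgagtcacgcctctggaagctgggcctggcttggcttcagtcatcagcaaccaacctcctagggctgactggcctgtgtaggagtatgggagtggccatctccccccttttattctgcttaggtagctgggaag
Cidec: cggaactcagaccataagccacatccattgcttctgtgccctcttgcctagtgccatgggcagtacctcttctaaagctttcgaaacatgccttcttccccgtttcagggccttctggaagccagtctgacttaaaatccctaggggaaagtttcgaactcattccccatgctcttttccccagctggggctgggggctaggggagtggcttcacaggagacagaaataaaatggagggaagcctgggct
The Cyp3a11 window holds 1 half-site at bases 89 to 94 and the Il1rn window 1 at bases 62 to 67, counted from the first base shown, whereas the Cidec window holds none. Windows of up to 250 bases were given for 25 of the 31 genes, 38 windows in all. The half-site was found on either strand in 7 of the 38, and in 14.02% of 32851 windows of all genes. The 7 windows belong to Adgrv1, Cyp3a11, Il1rn, Ivns1abp and Limch1. Those of Ivns1abp overlap and hold the same site, so windows of a gene are not separate observations. The repeat with 1 spacer base, AGGTCANAGGTCA, was in none of the 38 and in 0.03% of all windows, and its relaxed form AGGNCANAGGNCA in none and in 0.34%. The repeat with 4 spacer bases, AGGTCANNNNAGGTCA, was in none of the 38 and in 0.02%. Of 3 further motifs, the E-box CACGTG was in 2 of the 38 (6.02% of all), TCACNCCAC, a sterol element, in 1 (1.05%), and GNACANNNTGTNC, a glucocorticoid element, in none (0.39%). A match is a description of these letters in this window and says nothing of a factor's binding.

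The other raised ceiling genes have varied roles. Limch1, an actin- and myosin-binding protein, was near absent in CD vehicle mice at 0.209, 1.10, 0.375 and 0.555 CPM. It reached 4.86, 4.10, 4.93 and 3.07 CPM with PFOA on CD and 10.4, 14.8, 9.99 and 12.8 CPM on HFD with vehicle. HFD PFOA mice had 10.9, 9.33, 11.2 and 12.1 CPM, overlapping the HFD vehicle mice and above every CD PFOA mouse. Every HFD vehicle mouse was above every CD PFOA mouse, and the interaction, -3.07 ± 0.41, was the largest in size of the 31 (edgeR adjusted p = 0.00328). Usp2, a deubiquitinating enzyme, averaged 3.98 ± 1.26 CPM in CD vehicle, 19.6 ± 4.48 CPM in CD PFOA, 12.3 ± 5.78 CPM in HFD vehicle and 10.9 ± 3.5 CPM in HFD PFOA mice (SD, n = 4 each). Its interaction was -2.46 ± 0.43 (edgeR adjusted p = 0.0192). Gadd45a, a growth arrest and DNA damage response gene, averaged 1.09 ± 0.447, 19.3 ± 7.06, 2.94 ± 0.892 and 13.4 ± 1.1 CPM in the same order, with HFD vehicle mice below every CD PFOA mouse. PFOA raised it on both diets, by 4.13 ± 0.31 on CD and by 2.17 ± 0.27 on HFD, and the interaction (-1.95 ± 0.40, edgeR adjusted p = 0.0469) was called in 4 of the 16 fits that left out 1 library. Csad, the decarboxylase of taurine synthesis, and Tns1, a focal adhesion protein, were chosen after their values were seen. Csad averaged 47.9 ± 22.9, 432 ± 46.6, 121 ± 16.8 and 347 ± 45.8 CPM, and its mean in CD vehicle rests partly on CD vehicle 4, at 81.9 CPM against 32.3 to 39.4 CPM in the other 3 mice. Tns1 averaged 114 ± 10.9, 189 ± 16.4, 181 ± 24.6 and 168 ± 13.4 CPM, and all of its exposed groups overlapped one another. Of the 12 raised ceiling genes, PFOA on HFD was called for 6 and not for the other 6, against 16.5% called of all genes tested.

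In 5 ceiling genes each exposure lowered the level. Elovl2, which elongates polyunsaturated fatty acids, had 912, 1071, 1134 and 949 CPM in CD vehicle mice. PFOA on CD gave 457, 582, 627 and 663 CPM, HFD with vehicle 692, 614, 625 and 589 CPM, and both together 687, 728, 710 and 688 CPM. All exposed mice lay below every CD vehicle mouse, and the interaction was 0.96 ± 0.15 (edgeR adjusted p = 0.0108). Acpp, an acid phosphatase, averaged 40.8 ± 6.71 CPM in CD vehicle, 9.51 ± 4.81 CPM in CD PFOA, 4.87 ± 2.11 CPM in HFD vehicle and 5.86 ± 1.19 CPM in HFD PFOA mice. Its interaction was 2.40 ± 0.46 (edgeR adjusted p = 0.0387). Apol7a, of the apolipoprotein L family, differed by -1.36 with PFOA on CD and by -0.72 with HFD under vehicle on the log2 scale. Pde9a, a cyclic GMP phosphodiesterase, differed by -1.45 and -0.64 in the same contrasts. Their interactions were 1.02 ± 0.19 for Apol7a (edgeR adjusted p = 0.0285) and 1.21 ± 0.24 for Pde9a (edgeR adjusted p = 0.0392). Svil, an actin-bound membrane scaffold chosen after its values were seen, averaged 59.0 ± 6.96, 27.7 ± 1.39, 41.9 ± 1.14 and 30.1 ± 1.56 CPM. PFOA on HFD was called for Svil alone of these 5 genes, against 16.5% of all genes tested. For Apol7a every HFD PFOA mouse also lay below every HFD vehicle mouse (log2 -0.34), but this was not called (edgeR adjusted p = 0.0906). Elovl2 was called in all 16 fits that left out 1 library, Apol7a in 8, Acpp in 6, Pde9a in 5 and Svil in 2. Among all 17 ceiling genes, the HFD vehicle and CD PFOA mice overlapped in 9, HFD vehicle mice lay above in 4 and below in 4. Over all genes tested, HFD vehicle mice lay above in 13.1% and below in 12.9%.

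**Figure D2:**
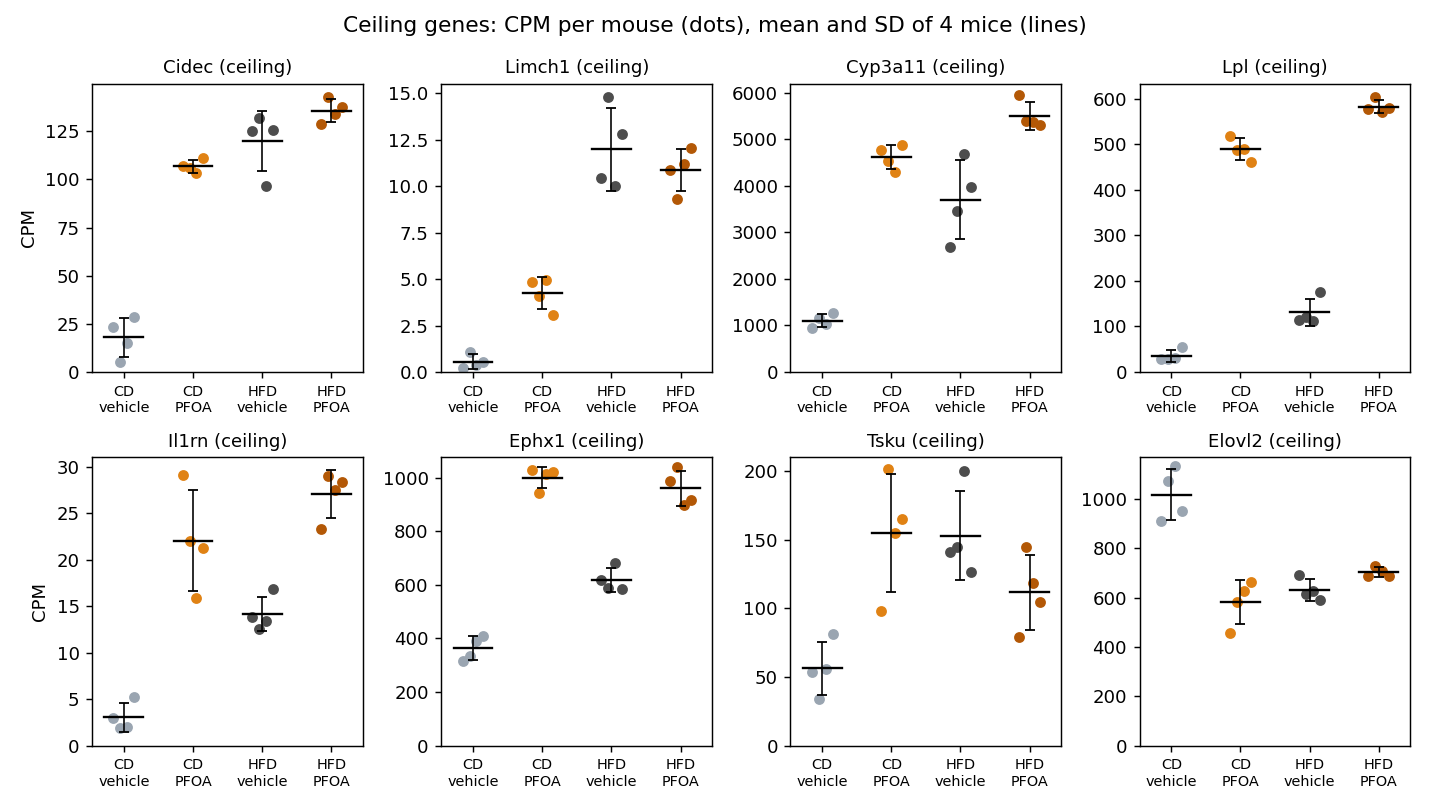
CPM (y axis, linear from 0) of 8 ceiling genes in the 4 groups (x axis); dots are single mice, lines the mean and bars the SD of 4 mice. Cidec reaches 107 CPM with PFOA alone, 120 with HFD alone and 136 with both, while Lpl climbs from 131 to 583 CPM with PFOA on HFD.

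The reset genes include 6 that PFOA lowered on HFD after the diet had raised them. Adgrv1, a very large adhesion receptor, was at 3.84, 2.75, 3.19 and 1.84 CPM in CD vehicle mice and at 41.3, 51.7, 24.7 and 36.6 CPM in HFD vehicle mice. With PFOA it was at 1.33, 1.45, 1.56 and 0.654 CPM on CD and at 1.53, 1.35, 5.21 and 2.74 CPM on HFD. The HFD vehicle mice alone stood high, and PFOA lowered Adgrv1 14.2-fold on HFD and 2.32-fold on CD. The interaction was -2.61 ± 0.52 (edgeR adjusted p = 0.0408), and limma voom did not call it. Ivns1abp, a kelch-domain protein known for binding an influenza virus protein, had 143, 120, 121 and 158 CPM in CD vehicle and 128, 135, 128 and 155 CPM in CD PFOA mice. On HFD it had 206, 212, 250 and 244 CPM with vehicle and 104, 126, 101 and 134 CPM with PFOA. On CD the PFOA difference was 0.01 ± 0.12 and was not called, and the interaction was -0.98 ± 0.16 (edgeR adjusted p = 0.0164).

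Klf13 and Zbtb16 are zinc finger transcription factors. Klf13 averaged 47.3 ± 3.78, 44.9 ± 6.91, 65.6 ± 6.88 and 32.7 ± 4.03 CPM (SD, n = 4 each) in CD vehicle, CD PFOA, HFD vehicle and HFD PFOA mice. The HFD PFOA mice were thus the lowest, below every mouse of the other groups. Its interaction was -0.93 ± 0.16 (edgeR adjusted p = 0.0192). Zbtb16 averaged 12.99 ± 8.36, 24.0 ± 7.11, 52.8 ± 12.8 and 19.2 ± 3.5 CPM, an interaction of -2.35 ± 0.45 (edgeR adjusted p = 0.0387). Its PFOA difference on CD was 0.89 ± 0.32, in the direction opposite to that on HFD, and just missed the threshold (edgeR adjusted p = 0.0517). Fmo5, a flavin-containing monooxygenase, averaged 1116 ± 64.3, 1181 ± 134, 1834 ± 151 and 1219 ± 56.6 CPM. Its HFD vehicle mice lay above every other mouse. Of the 16 fits that left out 1 library, Klf13 was called in 14 and Zbtb16, Fmo5 and Adgrv1 in 5 each.

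The other reset genes were lowered by HFD and raised again by PFOA. Fabp5, a fatty acid binding protein found in macrophages, skin and fat, had 20.8, 17.0, 11.8 and 26.7 CPM in CD vehicle and 6.81, 16.6, 14.5 and 11 CPM in CD PFOA mice. On HFD it had 4.21, 1.89, 3.93 and 3.91 CPM with vehicle and 16.1, 13.4, 13.3 and 10.9 CPM with PFOA. Every HFD vehicle mouse lay below every other mouse, and the interaction was 2.58 ± 0.39 (edgeR adjusted p = 0.00996). Ugt1a5, a glucuronosyltransferase, averaged 122 ± 10.4, 94.4 ± 26.7, 30.9 ± 12.2 and 66.0 ± 6.31 CPM, an interaction of 1.46 ± 0.29 (edgeR adjusted p = 0.0418). The Ugt1a genes share their last exons, and 59.5% of the exon bases of Ugt1a5 also belong to Ugt1a9, so its counts are uncertain. It was called in 4 of the 16 fits that left out 1 library and not with library totals as the scaling.

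In 3 of the 5 reversal genes PFOA lowered the gene on CD and raised it on HFD. Nudt7, a peroxisomal enzyme that breaks down coenzyme A, had 318, 293, 318 and 194 CPM in CD vehicle and 162, 191, 193 and 173 CPM in CD PFOA mice. On HFD it had 130, 116, 94.9 and 74.8 CPM with vehicle and 257, 171, 159 and 156 CPM with PFOA. The vehicle groups did not overlap, the PFOA groups did, and every PFOA mouse was above every HFD vehicle mouse. PFOA changed Nudt7 by -0.65 ± 0.18 on CD and by 0.84 ± 0.18 on HFD, an interaction of 1.48 ± 0.26 (edgeR adjusted p = 0.0192). Tm7sf2, a sterol reductase of cholesterol synthesis, had 61.6, 69.5, 77.9 and 84.9 CPM in CD vehicle and 34.7, 44.8, 60.0 and 53.2 CPM in CD PFOA mice. On HFD it had 27.1, 16.9, 20.9 and 21.2 CPM with vehicle and 37.0, 29.5, 33.7 and 28.9 CPM with PFOA. The CD vehicle mice were highest, the HFD vehicle mice lowest, and the interaction was 1.19 ± 0.22 (edgeR adjusted p = 0.0341). Adck1, a mitochondrial kinase-like protein, averaged 12.5 ± 1.41, 8.39 ± 1.15, 8.25 ± 1.05 and 11.4 ± 1.18 CPM, so that either exposure alone gave the lower level (interaction 1.05 ± 0.21, edgeR adjusted p = 0.0418).

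The other reversal genes rose with PFOA on CD and fell with it on HFD. Arrdc3, an arrestin-domain protein that acts on receptor trafficking, had 43.4, 86.6, 76.2 and 59.6 CPM in CD vehicle and 114, 103, 97.2 and 107 CPM in CD PFOA mice. On HFD it had 132, 109, 148 and 177 CPM with vehicle and 73.8, 109, 68.4 and 104 CPM with PFOA. The PFOA groups overlapped, and the interaction was -1.34 ± 0.27 (edgeR adjusted p = 0.0408). Adgrg2, another adhesion receptor, averaged 1.67 ± 0.566, 3.14 ± 0.801, 6.57 ± 1 and 3.37 ± 0.363 CPM, an interaction of -1.86 ± 0.37 (edgeR adjusted p = 0.0404). Nudt7 was called in all 16 fits that left out 1 library, Tm7sf2 in 6, Arrdc3 in 5, Adgrg2 in 3 and Adck1 in 2. Outside the 31, 3 more genes were called for PFOA on both diets in opposite directions, and their interaction missed the threshold: Dopey2 (edgeR adjusted p = 0.055), Elovl7 (edgeR adjusted p = 0.0748) and Nid1 (edgeR adjusted p = 0.0953). Against these 8, 1774 genes were called with the same direction on both diets, 48.5% of the 3656 genes called on CD and 71.6% of the 2476 called on HFD. Those calls took in 24.4% of all genes tested on CD and 16.5% on HFD.

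Arhgef26, an exchange factor for small GTPases, was the synergy gene. It had 27.1, 32.0, 48.0 and 36.3 CPM in CD vehicle and 39.4, 36.7, 45.3 and 37.2 CPM in CD PFOA mice. On HFD it had 40.2, 44.8, 61.8 and 41.9 CPM with vehicle and 24.7, 16.8, 24.7 and 22.3 CPM with PFOA. Every HFD PFOA mouse lay below every other mouse, while the other 3 groups overlapped. On the log2 scale, PFOA on CD (0.15 ± 0.17) and HFD under vehicle (0.39 ± 0.17) lay above 0 and were not called. PFOA on HFD lay below 0 (-1.09 ± 0.17). The class name marks the sorting rule and does not mean that 1 exposure enhanced the other. The interaction was -1.24 ± 0.24 (edgeR adjusted p = 0.038), and it was called in 5 of the 16 fits that left out 1 library. An antisense transcript shares 21.6% of its exon bases, and the libraries carried no strand, so gene and antisense reads cannot be told apart there.

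**Figure D3:**
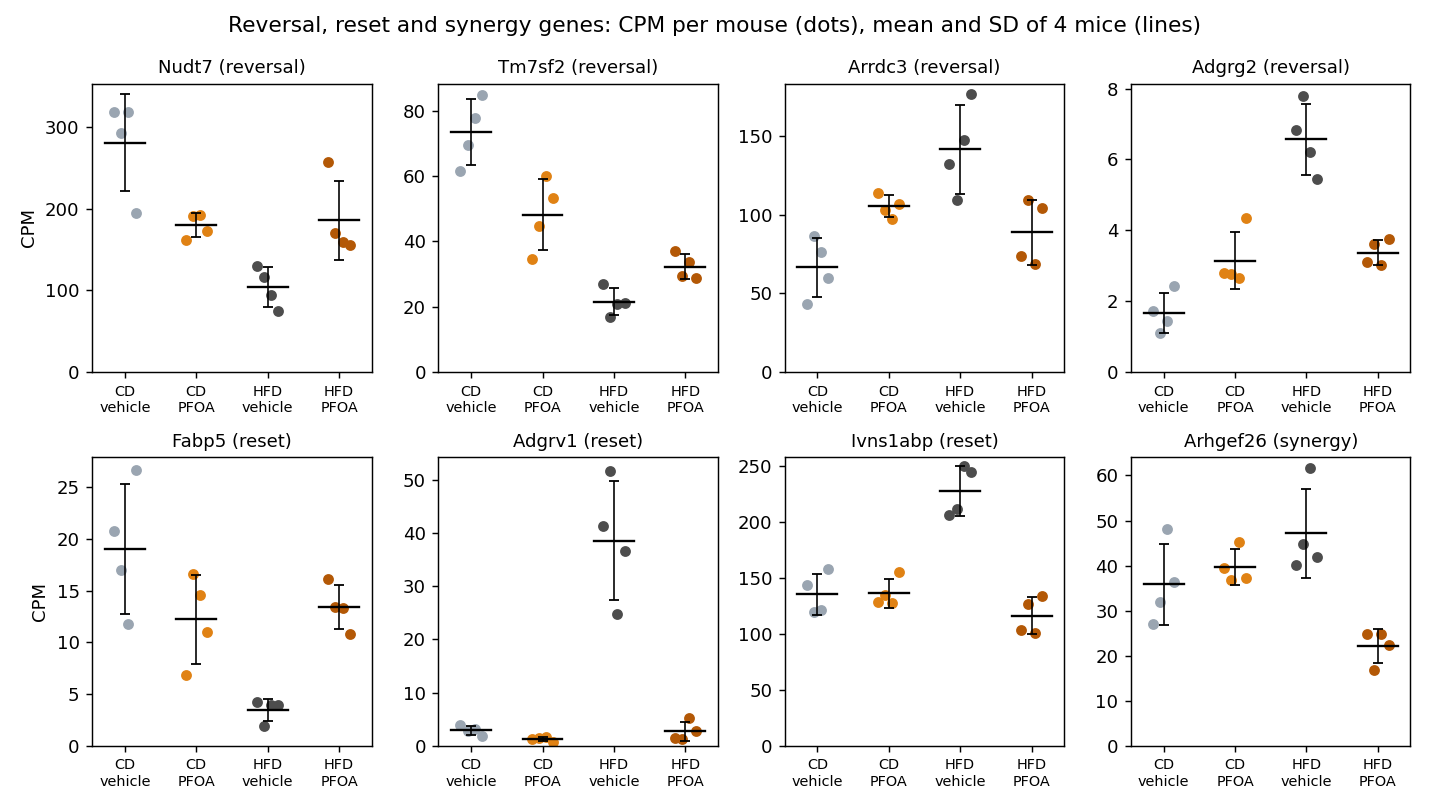
CPM (y axis, linear from 0) of 4 reversal, 3 reset genes and the synergy gene in the 4 groups (x axis); dots are single mice, lines the mean and bars the SD of 4 mice. Adgrv1 is high only in HFD vehicle mice (mean 38.6 CPM), Fabp5 is low only there (3.48 CPM), and Arhgef26 is lowest with both exposures (22.1 CPM).

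The 31 genes can also be read from the side of the diet. HFD under vehicle was called for 30 of them, all but Arhgef26, where 10.4% of all genes tested were called. HFD under PFOA was called for none of the 31 and for 9 genes in all, 0.06% of those tested, by edgeR. That count moved with the libraries: it was 1 without CD PFOA 4 or HFD PFOA 4, 2 without CD PFOA 3 or HFD PFOA 2 and 4 without CD PFOA 2. It was 22 without CD PFOA 1, 37 without CD vehicle 1, 56 without CD vehicle 4 and 208 without both of these CD vehicle mice. The DESeq2 Wald test called 179, 4 of them among the 31, limma voom 18 with 2 of the 31, and edgeR with no low-count filter 0.805% of the genes tested there, with 6 of the 31. Limch1 and Arhgef26 were called in each of these 3 fits, and also without CD vehicle 1 or CD vehicle 4. The size of the diet difference had a median of 1.43 on the log2 scale under vehicle and 0.30 under PFOA in the 31, against 0.25 and 0.18 over all genes tested. It was smaller under PFOA in 30 of the 31 and in 61.7% of all genes tested. These values use the libraries of the interaction and are a description. The HFD PFOA mice lay above every CD PFOA mouse in 8 of the 31 genes and in 4.15% of all genes tested, among them Cyp3a11, Limch1, Lpl and Cidec. They lay below in 3 and in 3.53% of all, the 3 being Usp2, Klf13 and Arhgef26.

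**Figure D4:**
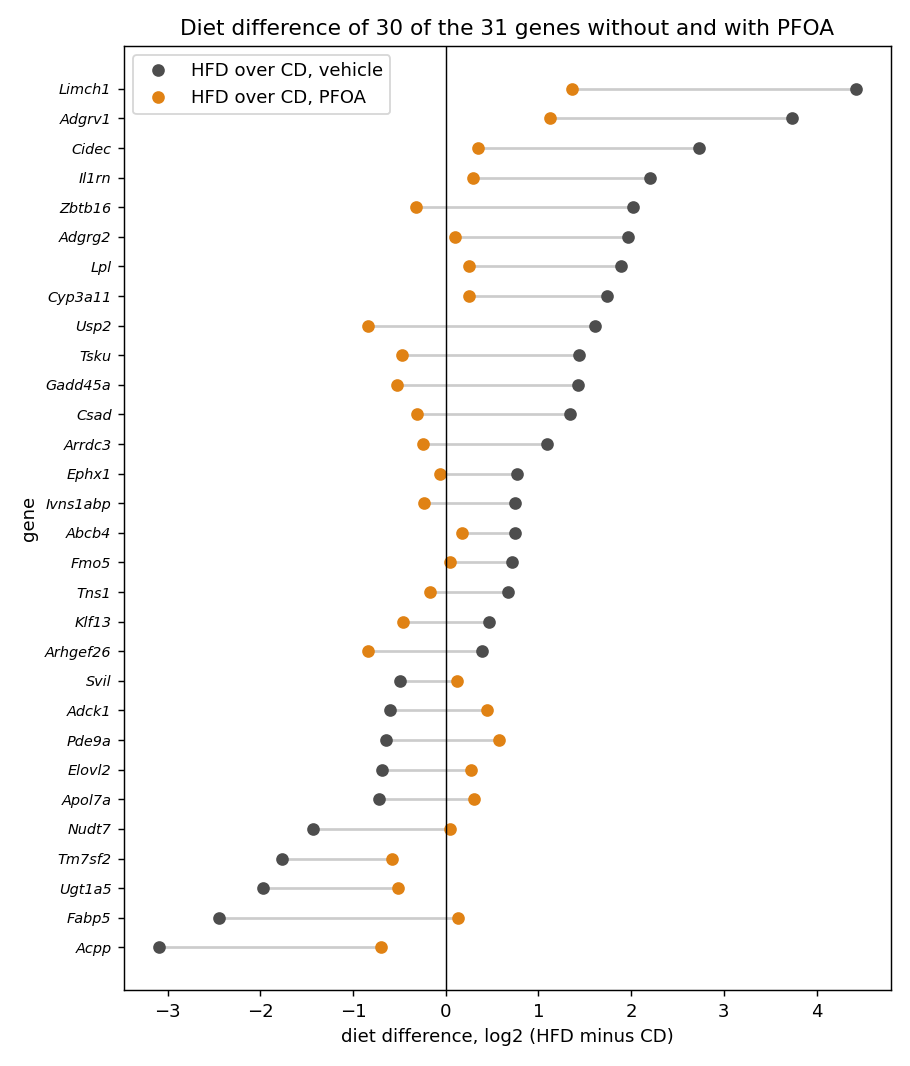
Diet difference (x axis: log2 HFD minus CD) of 30 of the 31 genes under vehicle (grey) and under PFOA (orange), ordered by the value under vehicle. The grey points reach from -3.09 for Acpp to 4.42 for Limch1, and the orange points lie between -0.84 and 1.36.

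In the lists of fatty acid oxidation no interaction was called, against 0.207% of all genes tested, so lists of this size would hold few calls or none. None of the 22 tested genes of peroxisomal fatty acid oxidation was called, with a median of 0.14, nor were any of the 23 genes of mitochondrial oxidation and ketogenesis, with a median of -0.06. Over all genes tested the median was 0.02, with 7925 interactions above 0 and 7073 below. Unadjusted p was under 0.05 in edgeR for 3 genes of the first list and 1 of the second, against 10.9% of all genes tested. Ehhadh, the peroxisomal bifunctional enzyme, averaged 624 and 15410 CPM without and with PFOA on CD and 703 and 16210 CPM on HFD, and the 95% interval of its interaction ran from -0.50 to 0.30. The interval ran from -0.20 to 0.76 for Cyp4a14, a fatty acid omega-hydroxylase, and from -0.28 to 0.46 for Plin2, the main lipid droplet coat protein. It lay above 0 for Cyp4a10 (0.08 to 0.99) and Pdk4 (0.13 to 1.84). For Cd36 (-1.02 to -0.22), Abcc4 (-2.92 to -0.87) and Pparg (-1.29 to -0.38) it lay below 0, and none of these genes was called. Of 14 tested microsomal omega-oxidation genes, 11 had an interaction above 0 and 5 an unadjusted p under 0.05 in edgeR. Their median was 0.27 and none was called. Cidea, the relative of Cidec, had 20.0, 75.1, 61.4 and 170 CPM in CD vehicle, CD PFOA, HFD vehicle and HFD PFOA mice, with a wide interval from -1.53 to 0.66. Otop1, a proton channel, had no count in either vehicle group and 19.7 and 42.2 CPM with PFOA on CD and HFD, so no interaction is given for it. Ppara itself averaged 66.2, 120, 112 and 130 CPM in CD vehicle, CD PFOA, HFD vehicle and HFD PFOA mice, an interaction of -0.64 ± 0.14 that just missed the threshold (edgeR adjusted p = 0.0558).

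Cyp2b10, the usual readout of CAR, was the nearest gene outside the threshold. It averaged 1.18, 315, 4.85 and 214 CPM in CD vehicle, CD PFOA, HFD vehicle and HFD PFOA mice, an interaction of -2.55 ± 0.53 (edgeR adjusted p = 0.0547). Just inside the threshold stood Gadd45a and Svil, both at 0.0469. Of the 24 tested genes of CAR- and PXR-controlled metabolism, Cyp3a11 was the 1 called, 17 had an interaction below 0, and the median was -0.28. Over all 14998 genes tested, 7073 were below 0 and 10.9% had an unadjusted p under 0.05 in edgeR. Of the 24 genes of NRF2 and glutathione defence, Ephx1 was the 1 called, 18 were below 0 and 14 had an unadjusted p under 0.05. The mean level of that list was 24.8 to 38.0 CPM in CD vehicle mice, 43.0 to 54.5 in CD PFOA, 42.5 to 51.3 in HFD vehicle and 41.0 to 57.6 in HFD PFOA mice. The list means here are geometric means of CPM over the tested members.

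Cholesterol synthesis and uptake showed the opposite sign. Of its 25 tested genes 24 had an interaction above 0, 18 had an unadjusted p under 0.05 and the median was 0.89, but by edgeR only Tm7sf2 was called. Over all 14998 genes tested, 7925 were above 0 and 10.9% had an unadjusted p under 0.05 in edgeR. The mean level of the cholesterol list was 47.4, 70.8, 80.6 and 122 CPM in the CD vehicle mice and 43.8 to 63.9 CPM in CD PFOA mice. HFD vehicle mice had 30.7 to 39.1 CPM and HFD PFOA mice 39.7 to 43.4 CPM. The HFD groups did not overlap and the CD groups did, with CD vehicle 4 highest. The median was 0.54 without CD vehicle 4 and 1.11 without CD vehicle 1. Hmgcs1, the first committed synthase of the pathway, had an interaction of 1.11 ± 0.32 (edgeR adjusted p = 0.165), and Pmvk, a mevalonate pathway kinase, one of 1.10 ± 0.27 (edgeR adjusted p = 0.0953).

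Of the 15 tested markers of lipid-associated macrophages, 14 had an interaction below 0, with a median of -1.13, Lpl called lower and Fabp5 called higher. For this and the next lists, the values over all 14998 genes tested were 7925 above 0 and 7073 below. An unadjusted p under 0.05 in edgeR was found for 10.9% of all genes tested. The summed level of the 15 was 1381 to 1779 CPM in CD vehicle, 2406 to 2685 CPM in CD PFOA, 1973 to 2542 CPM in HFD vehicle and 2578 to 2805 CPM in HFD PFOA mice. Without Lpl it was 1352 to 1724, 1919 to 2226, 1858 to 2367 and 2002 to 2226 CPM in the same order, and the HFD groups then overlapped. The median PFOA difference of the 15 genes was 0.44 on CD and -0.68 on HFD, so the sum and the median differ in sign on HFD. Their part in the results for Lpl, Fabp5 and Il1rn was not tested. Gpnmb, a marker of these cells, averaged 0.636, 5.93, 45.8 and 28.5 CPM in CD vehicle, CD PFOA, HFD vehicle and HFD PFOA mice. Single mice ranged from 0 to 2.18 CPM in CD vehicle and from 15.9 to 86.4 CPM in HFD vehicle. HFD PFOA 1 had 5.59 CPM and the other HFD PFOA mice 34.1 to 37.2 CPM. The Gpnmb interaction was -3.87 ± 0.98 (edgeR adjusted p = 0.109). None of 25 matrix and fibrosis genes was called, though 23 had an interaction below 0, with a median of -0.49 and 8 at an unadjusted p under 0.05 in edgeR. Col1a1, the main fibrillar collagen chain, averaged 14.1, 24.8, 47.2 and 39.3 CPM in the same order (interaction -1.08 ± 0.38, edgeR adjusted p = 0.259). Of 34 complement and coagulation genes, 31 had an interaction above 0 with a median of 0.29, and none was called by edgeR, with 14 at an unadjusted p under 0.05. Their mean level was highest in CD vehicle 1, at 325 CPM against 230 to 289 CPM in the other CD vehicle mice. The median was 0.25 without CD vehicle 1. Among HFD PFOA mice, the level was 181 CPM in HFD PFOA 1 and 132 to 135 CPM in the others. The median of 25 acute phase genes was 0.35 and became -0.26 without CD vehicle 1. The male-biased liver genes had the highest median among the pathway lists, 1.44 over 20 tested genes with 18 above 0, none called and 11 at an unadjusted p under 0.05 in edgeR. Their mean level was 51.5, 50.1, 46.5 and 14.7 CPM in the CD vehicle mice, so that CD vehicle 4 stood apart, and 6.19 to 26 CPM in HFD vehicle mice. CD PFOA mice had 8.76 to 10.3 CPM. The HFD PFOA mice had 20.5, 6.35, 7.99 and 6.94 CPM, so that HFD PFOA 1 stood apart too. Of all 43 lists, 33 held no called gene, and 22 of the 31 called genes were in no list.

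By position on GRCm38, Cyp3a11 lies at chr5:145854426-145879964, Cidec at chr6:113424634-113435760, Lpl at chr8:68880491-68907448, Limch1 at chr5:66745827-67057158 and Il1rn at chr2:24336853-24351494. Nudt7 lies at chr8:114133557-114154739, Fabp5 at chr3:10012548-10016607, Adgrv1 at chr13:81095068-81633154 and Arhgef26 at chr3:62338344-62462221. All 31 are annotated as protein coding, and 11 share exon bases with another gene. Beside Ugt1a5 and Arhgef26, the shared part was over 10% of exon bases in Gadd45a (19.1%, opposite strand) and Tm7sf2 (12.1%, with Vps51).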

How the data were processed

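Total RNA of 16 frozen mouse livers was sequenced from non-stranded libraries, per the labels' protocols. The authors deposited a table of raw read counts per gene. The submitters' processing notes name bcl2fastq 2.20.0.422, Trimmomatic 0.33, STAR 2.5.2b, featureCounts of Subread 1.6.0 and the builds GRCm38 and mm10. Groups follow the treatment label, and no batch or pairing is given. By the series' design text, the 4 libraries of a group come from separate mice.

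All 16 libraries entered 1 quasi-likelihood fit of edgeR 4.0.16 (R 4.3.3; filterByExpr, TMM factors, a mean per group, 12 residual degrees of freedom, common biological coefficient of variation 0.242). Benjamini-Hochberg adjustment covered all 14998 tested genes, with calls made at an adjusted p under 0.05. Values after ± are the SE for log2 differences and the SD for CPM, which use TMM-scaled totals. The tests were checked on simulated counts. Alternatives were DESeq2 1.42.0 (Wald test, size factors), library totals, limma 3.58.1 (voom), other filters and omitted libraries.

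The members, classes and 43 gene lists (30 of pathways, 13 of cell types) were chosen with earlier results of these data known. Named genes are the 8 largest called interactions in each direction, the 8 smallest p-values per class, the 3 smallest p-values per list and 21 index genes. Nid1, Dopey2, Csad, Tns1 and Svil fall outside this rule, as do Parp14, Gramd1b, Hs6st1, Ifih1, Smad9, AW112010, Tpm2 and Samd9l. Genes the rule names for a list appear in the text only where that list is described, and not all of them. Beside these, results for 1 of the 31 genes and 1 index gene are not reported here and stay in the counts. Gene positions are from GENCODE, where 27 of the 31 identifiers had the same version. Promoters are from RefSeq, without chromosome 18.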

Additional observations from a re-analysis of the deposited data

Results flagged for a closer look

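Each called interaction given here is a difference between the diets in the response to PFOA, tested by the interaction term (edgeR). On the log2 scale the raised ceiling genes were Cyp3a11 (-1.49), Limch1 (-3.07), Lpl (-1.63), Ephx1 (-0.83), Cidec (-2.38), Il1rn (-1.91), Tsku (-1.91), Usp2 (-2.46), Tns1 (-0.84), Csad (-1.66), Abcb4 (-0.57) and Gadd45a (-1.95). The lowered ceiling genes were Elovl2 (0.96), Apol7a (1.02), Acpp (2.40), Pde9a (1.21) and Svil (0.61). The reset genes were Fabp5 (2.58), Ugt1a5 (1.46), Ivns1abp (-0.98), Klf13 (-0.93), Zbtb16 (-2.35), Fmo5 (-0.67) and Adgrv1 (-2.61). The reversal genes were Nudt7 (1.48), Tm7sf2 (1.19), Adck1 (1.05), Adgrg2 (-1.86) and Arrdc3 (-1.34), and the synergy gene was Arhgef26 (-1.24).

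In 10 of 185 groups of 4 mice examined, over the called genes and the index genes, 1 mouse lay far from the other 3. Chance alone flags about 1 in 20 groups. CD vehicle 4 was high for Lpl (54.3 CPM, the others at most 30.1) and Csad (81.9 CPM, the others at most 39.4). HFD PFOA 1 was high for Cyp3a11 (5942 CPM) and Nudt7 (257 CPM). HFD vehicle 4 was high for Lpl (175.5 CPM), while HFD vehicle 2 was low for Fabp5 (1.89 CPM) and the only mouse of its group with Fabp3 counts (0.153 CPM). CD PFOA 4 was high for Adgrg2 (4.34 CPM) and low for Ppara (110.5 CPM), and CD PFOA 1 was high for Pdk4 (464.5 CPM).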

How the results depend on the processing

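No paired analysis was possible because the labels give no replicate number shared between groups. Direction held for all 31 genes in every fit run. The genes were chosen by their interaction in the same libraries, so a change of sign was unlikely from the outset. Of the 31, 24 were called in all 6 fits with another tool, scaling or filter. The counts moved, and the cause was not tested. Calls in each direction are percentages of the genes tested in that fit (0.0667% higher and 0.14% lower as reported). The DESeq2 Wald test called 223 genes (0.607% higher, 0.88% lower, 106 genes of size at least 1; classes ceiling 133, reset 49, reversal 10, synergy 9, damped 18, other 4). With no low-count filter 290 were called (0.469% higher, 0.569% lower, 172 genes of that size; 168, 64, 21, 13, 20 and 4). Without CD vehicle 1 and 4 together 652 were called (1.75% higher, 2.33% lower, 315 genes of that size; 424, 136, 55, 10, 20 and 7). Library totals called 44 (0.04% higher, 0.253% lower), with 29 ceiling genes and 0 synergy genes, and moved the median interaction of all genes to -0.10. Of the 31, 27 were among the 44. Limma voom called 40 with 8 reversals, and a mean of at least 1 CPM gave 1 damped gene. Leaving out 1 library gave 13 to 352 genes (0.0195% to 0.774% higher, 0.0586% to 1.52% lower, and 9 to 197 genes of that size). Classes then ranged from 9 to 245 for ceiling, 2 to 57 for reset, 1 to 26 for reversal, 0 to 6 for synergy and 0 to 18 for damped. The alternatives for the count of genes called for HFD under PFOA were chosen after seeing the data. The lowest depth was 14456524 counts, in HFD vehicle 3, and 19 genes were called without it. How depth limits the calls was not tested.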

Other observations

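Under PFOA, the 9 genes called between the diets by edgeR were none of the 31, in a count that ran from 1 to 56 when 1 library was left out: Hbb-bs, Parp14, Gramd1b, Hs6st1, Ifih1, Smad9, AW112010, Tpm2 and Samd9l. Parp14, Ifih1 and Samd9l belong to the interferon response. These 9 were chosen after their values were seen. Dbp, a clock output gene, averaged 1.33 and 30.4 CPM without and with PFOA on CD and 4.06 and 22.5 CPM on HFD (interaction -2.03 ± 0.53, edgeR adjusted p = 0.116). The organic anion transporter Slco1a1 averaged 228.6 and 2.89 CPM on CD and 39.6 and 4.99 CPM on HFD. Its vehicle mice ranged from 62.3 to 352 CPM on CD and from 7.01 to 83.3 CPM on HFD. The Slco1a1 interaction was 3.31 ± 0.88 (edgeR adjusted p = 0.126). The serine protease zymogen F11 averaged 41.7 and 7.82 CPM on CD and 27.6 and 11 CPM on HFD, an interaction of 1.08 ± 0.23 (edgeR adjusted p = 0.0558).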
